A study of Mus musculus with 10 samples.

Results

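The genes described here move bile acids, sterols and organic anions into and out of the hepatocyte, and include the receptor that senses bile acids. They are the uptake transporters Slc10a1, Slco1b2, Slco1a1, Slco1a4 and Slco2b1, the canalicular pumps Abcb11 and Abcb4, the sterol transporters Abcg5 and Abcg8, and the nuclear receptor Nr1h4. They were chosen by name, and each gene was represented by the probe set annotated to it with the highest mean signal over all 10 arrays. They make up 10 of the 18193 genes measured, covered by 18 of the 45101 probe sets. All 10 were among the 11507 genes whose mean signal over all arrays passed a minimum of 91, the median of all values.

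Liver RNA of mice whose strain is given as 129/B6 was hybridised to 10 Affymetrix arrays, 1 RNA sample to an array. The HCC arrays held tumours of 1 male of 18 months and 1 female of 14 months, and a further array held the dysplastic nodules of 1 female of 21 months, all Gnmt -/-. The 3 arrays of adjacent liver came from Gnmt -/- mice of the same sexes and ages, and each was taken to be from the same mouse as the lesion it matched, although the labels number no mice. The 2 young knockout arrays and the 2 wild-type arrays each held RNA mixed from 3 mice of 11 weeks, with 1 female and 1 male pool per genotype. Every aged mouse was a knockout, no aged wild-type liver was analysed here, and age, tumour burden and pooling differ together between the young and aged arrays and cannot be told apart. Pools hide the spread between their mice, and the spread between 2 or 3 arrays a group limits the precision of every value below.

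Conjugated bile acids return from the gut in portal blood and enter hepatocytes mainly through the sodium-dependent carrier NTCP, encoded by Slc10a1, with a sodium-independent share carried by the OATP family (the Slco genes). The bile salt export pump, encoded by Abcb11, drives them into the canaliculus, where Abcb4 supplies phospholipid and the Abcg5-Abcg8 heterodimer supplies cholesterol. Nr1h4 encodes FXR, which binds bile acids, induces Abcb11 and the repressor Nr0b2 (SHP), and through them limits both the load of bile acids and their synthesis. Gnmt encodes glycine N-methyltransferase, which uses S-adenosylmethionine to methylate glycine.

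Promoter sequences are shown for the bile salt pump and an uptake carrier that hold the same FXR-type repeat, and for the sterol transporter genes, whose signals moved together. They are taken from RefSeq windows of 250 bases before to 50 bases after a transcript start on GRCm38.p6, of which 14 covered the 10 genes. The motifs were picked after these windows had been seen. An inverted repeat of the kind bound by FXR, GGNCA followed by any base and then TGACC, was searched on both strands and was present in 2 of the 14 windows, those of Abcb11 and Slco1b2, and in 0.237% of all 32851 windows. Capitals mark it, 62 bases before the start in Abcb11 (chr2:69342567-69342866, minus strand) and 87 bases before it in Slco1b2 (chr6:141629268-141629567, plus strand).
Abcb11: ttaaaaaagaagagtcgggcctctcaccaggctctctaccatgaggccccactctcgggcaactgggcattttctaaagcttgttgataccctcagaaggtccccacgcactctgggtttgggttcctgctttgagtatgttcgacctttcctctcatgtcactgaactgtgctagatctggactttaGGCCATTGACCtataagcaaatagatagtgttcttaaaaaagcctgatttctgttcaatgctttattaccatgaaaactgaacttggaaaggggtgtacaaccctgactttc
Slco1b2: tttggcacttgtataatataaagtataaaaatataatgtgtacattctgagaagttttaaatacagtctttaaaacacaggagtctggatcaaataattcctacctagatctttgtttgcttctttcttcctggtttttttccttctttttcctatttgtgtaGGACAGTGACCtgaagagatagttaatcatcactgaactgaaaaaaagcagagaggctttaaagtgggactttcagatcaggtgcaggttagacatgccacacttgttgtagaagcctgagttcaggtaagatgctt
The starts of Abcg5, on the minus strand, and Abcg8, on the plus strand, lie 110 bases apart on chromosome 17, so the pair share a bidirectional promoter region. The stretch common to both windows (chr17:84682962-84683170, plus strand) is shown with AGATAA in capitals on either strand, a box of the kind bound by GATA factors. It occurs 3 times there, and 11.2% of all windows hold it at least once.
Abcg5 and Abcg8: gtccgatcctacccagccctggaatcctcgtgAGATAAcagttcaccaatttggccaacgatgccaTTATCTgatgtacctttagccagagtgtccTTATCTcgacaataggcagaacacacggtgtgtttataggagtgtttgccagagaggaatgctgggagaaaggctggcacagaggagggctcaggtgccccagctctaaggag
A match describes the letters of a window and does not show that a factor binds there.

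Across the series, Gnmt had signals of 245.2 and 190 in the female and male knockout pools, against 59472.6 and 52139.9 in the wild-type pools, and 11.7 to 329.4 in the aged arrays. Median signals per array ran from 77.4 to 102.4. Hepatocyte markers, of which 8 of 10 were measured, summed to 393580 to 683939 over all arrays, so no array lacked them. The ratio of the spiked BioC to BioB controls (3' probe sets) was 1.45 to 1.84 in the 6 aged arrays and 3.90 to 5.09 in the 4 young ones. Sampling time is not given in the labels, and the clock gene Dbp was at 190.6 in the wild-type female pool, at 42.2 and 213.6 in the HCC and adjacent liver of the male, and at 2390.2 to 11096.8 elsewhere. The HCC and adjacent liver of the male stood apart in neutrophil markers, with 9 of 10 measured and sums of 111349 and 103191, against 951.9 to 44560.8 in the other 8 arrays. Most of that sum was Lcn2, which hepatocytes also make in the acute phase, and S100a8 was at 8787.7 and 10075.7 in these arrays and at 88 to 700 elsewhere. The part of any of these measures in the results was not tested, and values without the male are given for several members below.

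Slco1a4 fell in HCC against adjacent liver, and it was at least 2-fold lower in the lesion of each of the 3 mice. By its brightest probe set, though not by the next ones, Slco1b2 was lower in all 6 aged knockout arrays than in all 4 young arrays. Slc10a1 was lower in all 6 than in both wild-type pools, and Slco1a1 was close to the bottom of the signal scale in every aged array. Over the 10 arrays the canalicular pumps and Nr1h4 ranged over 1.13 to 1.84 log2 units, and the other members over 2.20 or more.

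**Figure D1:**
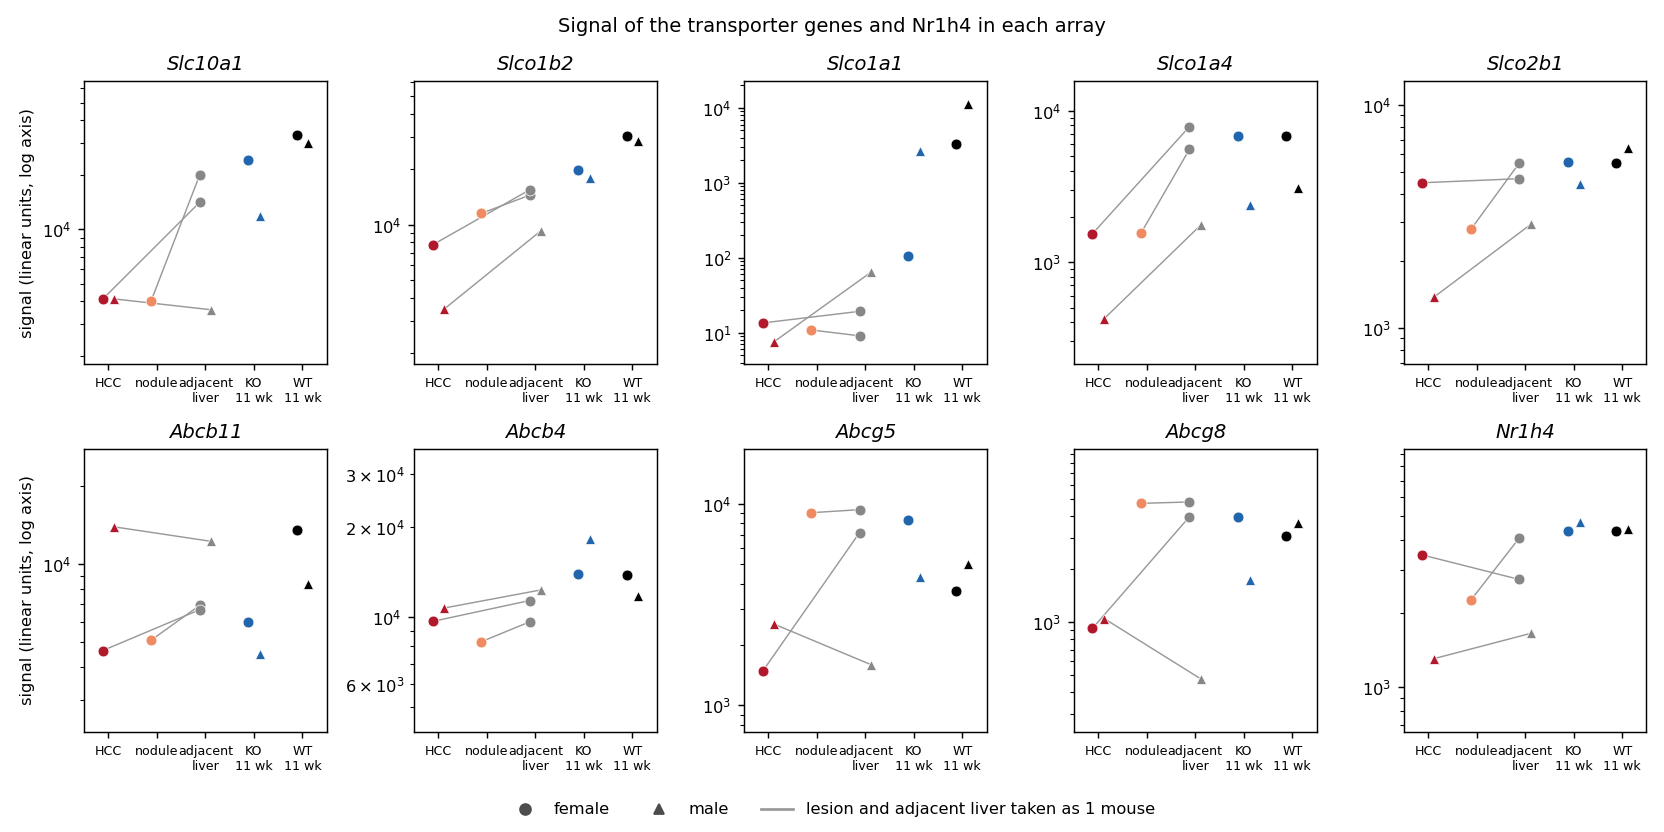
Signal of each gene on every array (log axes, each with its own range), by group from HCC to wild-type. Circles are females, triangles males, and lines join a lesion to the adjacent liver taken as the same mouse. Every line of Slco1a4, Slco1b2, Slco2b1 and Abcb4 runs lower at the lesion, and Slco1a1 is at 64.5 or below in all 6 aged arrays.

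Slc10a1, the sodium-dependent bile acid carrier (probe set 1424898_at), had signals of 4119.4 in the HCC of the male, 4106.5 in the HCC of the female and 4023 in the nodule. The adjacent livers of the same mice were at 3588.1, 14086.2 and 19892.2. Young knockout livers were at 24033.9 in females and 11771.9 in males, and wild-type livers at 32976.1 and 30012.7. The 3 lesions thus lay within a narrow range, and the male's adjacent liver lay with them, while the other adjacent livers overlapped the young knockout pools. Over 3 pairs the log2 difference of lesion minus adjacent liver was -1.29 ± 0.46 (SE, n = 3 pairs; limma adjusted p = 0.442). Without the male it was -2.04 with an adjusted p of 0.0125, and the male's own difference was 0.20. The second probe set of the gene gave -2.47 in the nodule and -1.79 in the female HCC, and 0.22 in the male HCC.

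Between young knockout and wild-type pools Slc10a1 differed by -0.90 ± 0.24 log2 units (SE, n = 2 pools each; limma adjusted p = 0.133), with -0.46 in females and -1.35 in males. The aged adjacent livers differed from the young knockout pools by -1.03 ± 0.33 (adjusted p = 0.393). Without the male's adjacent liver this difference was -0.52. All 6 aged arrays lay below both wild-type pools, but not below the male knockout pool.

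Slco1b2 encodes the mouse OATP1B2, a liver-restricted carrier of bile acids, bilirubin conjugates and drugs. Its signals were 3469.8 and 7764.4 in the male and female HCC and 11516 in the nodule, and 9292.9, 15480.3 and 14477.7 in their adjacent livers. Young knockout pools were at 19756.3 and 18012.7 in females and males, and wild-type pools at 30354.1 and 28602.3. The knockout pools lay below both wild-type pools, and by this brightest probe set all 6 aged arrays were below all 4 young ones. The next brighter probe sets did not show this separation of aged from young. In 1452494_s_at the adjacent livers of 21 and 14 months were at 6954.4 and 6720.2, against 6447.7 in male knockouts. In 1427826_a_at they were at 812.6 and 934.4, against 783 and 614.2 in female and male knockouts. The difference of HCC from adjacent liver was -1.21 ± 0.27 (SE, n = 2 pairs; limma adjusted p = 0.202), that of all lesions -0.91 ± 0.25 (adjusted p = 0.356), and that of young knockout from wild-type -0.64 ± 0.17 (adjusted p = 0.13). The gene had 5 probe sets, and the next brighter ones gave larger genotype differences, -1.18 and -1.56 in females and males for one and -2.27 and -1.91 for the other. The 2 dimmest were below the signal minimum. With means over all 5 probe sets, these dim ones included, the difference was -0.47 in HCC (adjusted p = 0.863) and -0.47 over all lesions (adjusted p = 0.593).

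Slco1a1 encodes OATP1A1, a carrier of sulfated steroids and bile acids that is known as male-predominant in mouse liver. It had the widest range of the members, 8.87 log2 units over the 10 arrays. Signals were 7.6, 13.5 and 10.9 in the male HCC, female HCC and nodule, and 64.5, 19.3 and 9.1 in the adjacent livers. Young knockout pools were at 106.8 in females and 2673.3 in males, and wild-type pools at 3305.5 and 11416.6. Every aged array was below every young one. Except in the male's adjacent liver, the aged signals lie near or under the constant of 16.8 added before the log, so differences among them carry little information. In the male, HCC minus adjacent liver was -1.74 and, by the second probe set, -1.79, values set partly by that constant.

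Young knockout pools differed from wild-type by -3.42 ± 0.55 log2 units in Slco1a1 (SE, n = 2 pools each; limma adjusted p = 0.053), a value that just missed the threshold of 0.05. It was -4.75 in females and -2.09 in males. With the constant halved, with quantile normalization, with centring on the 75th percentile, without a filter, or with the probe set chosen by its mean log2 value, the gene passed (adjusted p = 0.0332 for the last, which was added after seeing the data, at -3.14). It did not pass with means over probe sets (adjusted p = 0.0825), without the intensity trend (0.25), without the sex term (0.322) or in 1 model over all 10 arrays (0.254). Leaving out each young pool, in a model over all remaining arrays, aged ones included, gave -5.14 to -1.70. Females differed from males by -3.11 ± 0.55 (adjusted p = 0.18), with -4.44 in knockout and -1.78 in wild-type pools. The second probe set gave -4.14 and -2.14 for the genotype difference in females and males. Aged adjacent liver differed from young knockout liver by -3.32 ± 0.74 (adjusted p = 0.377), a value set partly by the added constant. It was -2.02 without the male's adjacent liver (adjusted p = 0.809), -5.05 without the female knockout pool (0.0321) and -3.41 without the adjacent liver of 21 months (0.0121).

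Slco1a4 encodes OATP1A4, a carrier of bile acids and cardiac glycosides known as female-predominant in mouse liver (probe set 1420405_at). It was at 422 in the male HCC against 1766.2 in adjacent liver, at 1538.4 in the female HCC against 7868.6, and at 1551.5 in the nodule against 5570.6. Young knockout pools were at 6768.9 in females and 2372.1 in males, and wild-type pools at 6779.8 and 3088.9. All 3 lesions were below every other array, and the adjacent livers of females were close to the young female pools. In these bulk samples fewer hepatocytes and less RNA per hepatocyte cannot be told apart. The hepatocyte marker sum was 683939 and 402136 in the HCC of the male and female against 631432 and 469687 in adjacent liver, and 393580 in the nodule against 544384.

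The log2 difference of Slco1a4 in HCC was -2.18 ± 0.27 (SE, n = 2 pairs, lower in both; limma adjusted p = 0.038), and its 95% interval ran from -2.80 to -1.57. The differences by mouse were -2.02, -2.34 and, for the nodule, -1.83. Over all 3 lesions the difference was -2.07 ± 0.19 (adjusted p = 0.0822). The limma call in HCC did not hold in every setting. Its adjusted p was 0.0745 with quantile normalization, 0.0732 with centring on the 75th percentile, 0.0852 with means over probe sets, 0.404 without the intensity trend, 0.0898 in 1 model over all 10 arrays and 1 with the mouse term dropped. The difference was -2.23 to -2.11 in these settings. Without the female of 14 months, an unpaired model over all remaining arrays, with 1 HCC array, gave -2.13. Over all lesions, the paired fit gave -2.09 without the male, with an adjusted p of 0.0113, and 135 genes were then called in all. It gave -1.93 without the female of 14 months (adjusted p = 0.328). Female pools exceeded male pools by 1.32 ± 0.21 at 11 weeks (adjusted p = 0.125; 1.51 in knockout and 1.13 in wild-type), and the genotype difference was -0.19 ± 0.21.

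Slco2b1 encodes OATP2B1, a widely expressed carrier of sulfated steroids. Its signals were 1378.6, 4482.6 and 2772.2 in the male HCC, female HCC and nodule, and 2924.8, 4674.3 and 5503.4 in their adjacent livers, with 5573.8 and 4409.3 in female and male knockout pools and 5495.8 and 6400.4 in wild-type pools. Each lesion was lower than its own adjacent liver, by -1.08, -0.06 and -0.98 log2 units, and the groups overlapped. The fit over 3 lesions gave -0.71 ± 0.25 (SE; limma adjusted p = 0.439).

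Abcb11, the bile salt export pump, was higher in both tissues of the male than in the other aged arrays. Signals were 13949.9, 4639.7 and 5090.5 in the male HCC, female HCC and nodule, and 12259.2, 6674.5 and 6935.4 in their adjacent livers. They were 5978.4 and 4493.2 in the female and male knockout pools, and 13590.5 and 8367.1 in the wild-type pools, without overlap between genotypes. The genotype difference was -1.04 ± 0.20 (SE, n = 2 pools each; limma adjusted p = 0.0666), -1.18 in females and -0.89 in males, and it passed with quantile normalization (adjusted p = 0.0119). It did not pass in the other settings, with an adjusted p of 0.266 without the intensity trend, 0.229 without the sex term and 0.473 in 1 model over all 10 arrays. Leaving out each young pool, in a model over all remaining arrays, aged ones included, gave -1.73 to -0.34. The HCC difference was -0.17 ± 0.29 (adjusted p = 0.953), with a 95% interval from -0.83 to 0.49. By mouse, HCC minus adjacent liver was 0.19 in the male and -0.52 in the female. An unpaired model over all remaining arrays gave -0.55 without the male and 0.64 without the female of 14 months. Aged adjacent liver was above young knockout liver by 0.73 ± 0.31 (adjusted p = 0.417), a value of 0.19 without the male's adjacent liver. Slco1b2, the other gene with the inverted repeat shown above, was lower in that male's HCC than in any other array.

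Abcb4, the phosphatidylcholine translocator of the canaliculus, varied least of the 10 genes, over 1.13 log2 units. It was at 10715.8, 9669.9 and 8268.5 in the male HCC, female HCC and nodule, and at 12318.6, 11349 and 9634.7 in their adjacent livers. Young knockout pools were at 13914.5 and 18165.8 in females and males, and wild-type pools at 13813.6 and 11753.8. The lesion was lower in all 3 mice by a similar amount, -0.20, -0.23 and -0.22, and the fit gave -0.22 ± 0.17 (SE; limma adjusted p = 0.722) with a 95% interval from -0.63 to 0.20.

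Abcg5 and Abcg8, which form the heterodimer that exports sterols into bile, had similar profiles across the arrays. Abcg5 was at 2528.7 and 1474.3 in the male and female HCC and 9017.2 in the nodule, and at 1590.8, 7182.8 and 9336.3 in their adjacent livers. Abcg8 was at 1051.9, 924.6 and 4737.5 in the same lesions and at 476.5, 3980.2 and 4824.8 in the adjacent livers. In the female HCC both were low relative to adjacent liver, by -2.27 and -2.09 log2 units. In the male HCC both were above an adjacent liver that was itself low, by 0.66 and 1.12, and in the nodule both were level with adjacent liver, at -0.05 and -0.03. The fits over 2 HCC pairs therefore had wide intervals, -0.80 ± 0.56 for Abcg5 (SE; limma adjusted p = 0.84) and -0.49 ± 0.61 for Abcg8 (adjusted p = 0.932). Without the male, an unpaired model over all remaining arrays, with 1 HCC array, gave -2.46 and -2.22.

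In young liver, Abcg5 was at 8316.7 and 4332.9 in the female and male knockout pools and at 3709.8 and 5033.6 in the wild-type pools, a difference of 1.16 in females and -0.22 in males. Abcg8 was at 3945.7 and 1745.7 in the knockout pools and 3105.3 and 3650.7 in the wild-type pools, 0.34 in females and -1.06 in males. The genotype fits gave 0.47 ± 0.33 (SE; limma adjusted p = 0.482) for Abcg5 and -0.36 ± 0.34 (adjusted p = 0.612) for Abcg8, and neither was distinguishable from no difference at this spread.

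**Figure D2:**
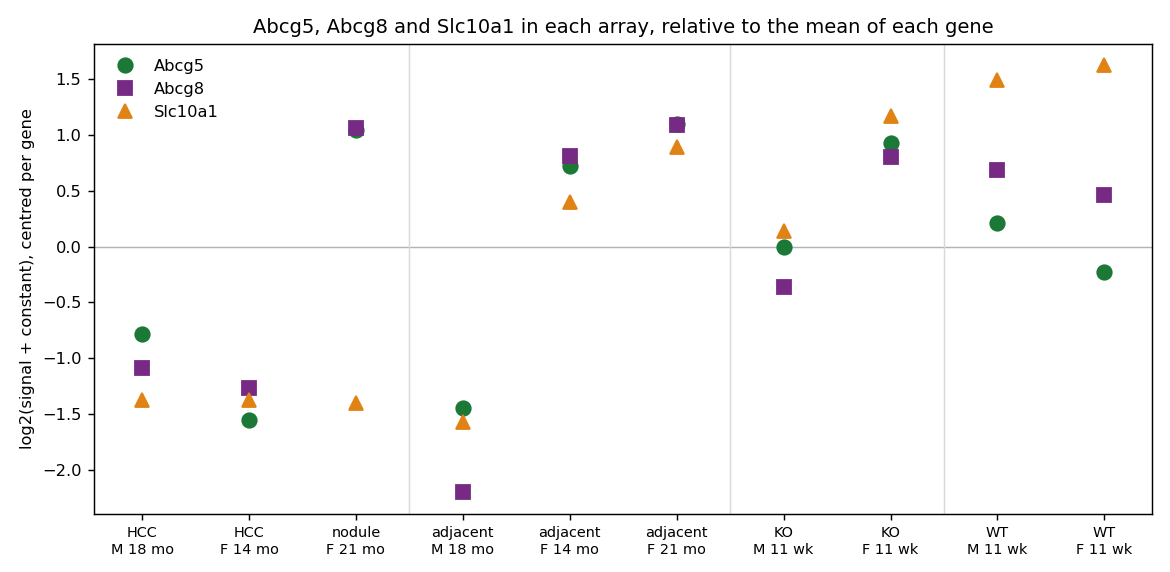
Log2 signal of Abcg5, Abcg8 and Slc10a1 on each array, relative to the mean of each gene. Abcg5 and Abcg8 lie together on most arrays, low in both HCC and in the male's adjacent liver and high in the nodule, whereas Slc10a1 is low in the nodule as well.

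Nr1h4, the bile acid receptor FXR, was at 1306.5, 3472.4 and 2270.7 in the male HCC, female HCC and nodule, and at 1659.4, 2756 and 4082.5 in their adjacent livers. Young pools lay close together, at 4349.2 and 4720.6 in female and male knockouts and 4368.9 and 4453.6 in wild-types. All 6 aged arrays were below all 4 young ones. The aged adjacent livers differed from young knockout liver by -0.86 ± 0.33 (SE, n = 3 livers against 2 pools; limma adjusted p = 0.4). Without the male's adjacent liver, or without the male knockout pool, this was -0.37, and without the female knockout pool -1.50 (adjusted p = 0.0753). The genotype difference was 0.04 ± 0.20 with a 95% interval from -0.43 to 0.51, and the HCC difference was -0.00 ± 0.29, with -0.34 in the male and 0.33 in the female.

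Set against all genes, the members leaned lower in the lesions. In HCC against adjacent liver, 1 of 10 members (Slco1a4) passed, where limma called 0.0869% of the 11507 genes in either direction and 0.0174% as lower, and 2 members were lower at an unadjusted p below 0.05, against 3.15% of all genes. Leaving out a mouse left 1 HCC array, and the fit was then an unpaired model over all remaining arrays. Slco1a4, Slc10a1 and Abcg5 were at -2.09, -2.02 and -2.46 in it without the male. Without the female of 14 months they were at -2.13, -0.43 and -0.10. Over both mice the sign was negative for all 10 members, with a median of -0.68 against -0.00 for all genes. Nr1h4 turned to 0.01 with quantile normalization. Over all 3 lesions limma called 0 of 10 members and 0.00869% of genes (1 gene), and 4 members (Slco1a4, Slc10a1, Slco1b2 and Slco2b1) were lower at an unadjusted p below 0.05, against 3.97%. All 10 were negative there, with a median of -0.59 against 0.01. The lesion was below its own adjacent liver in all 3 mice for 4 members (Slco1a4, Slco1b2, Slco2b1 and Abcb4), as it was for 16.1% of genes. Slco1a4 was also the 1 member whose lesions lay below all 3 adjacent livers, as they did for 4.01% of genes, and the 1 member at least 2-fold lower in all 3 mice, as were 0.156% of genes. The nodule, for which a single pair of arrays allowed no test, was below its adjacent liver in 9 of 10 members, with a median of -0.39 against 0.03.

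**Figure D3:**
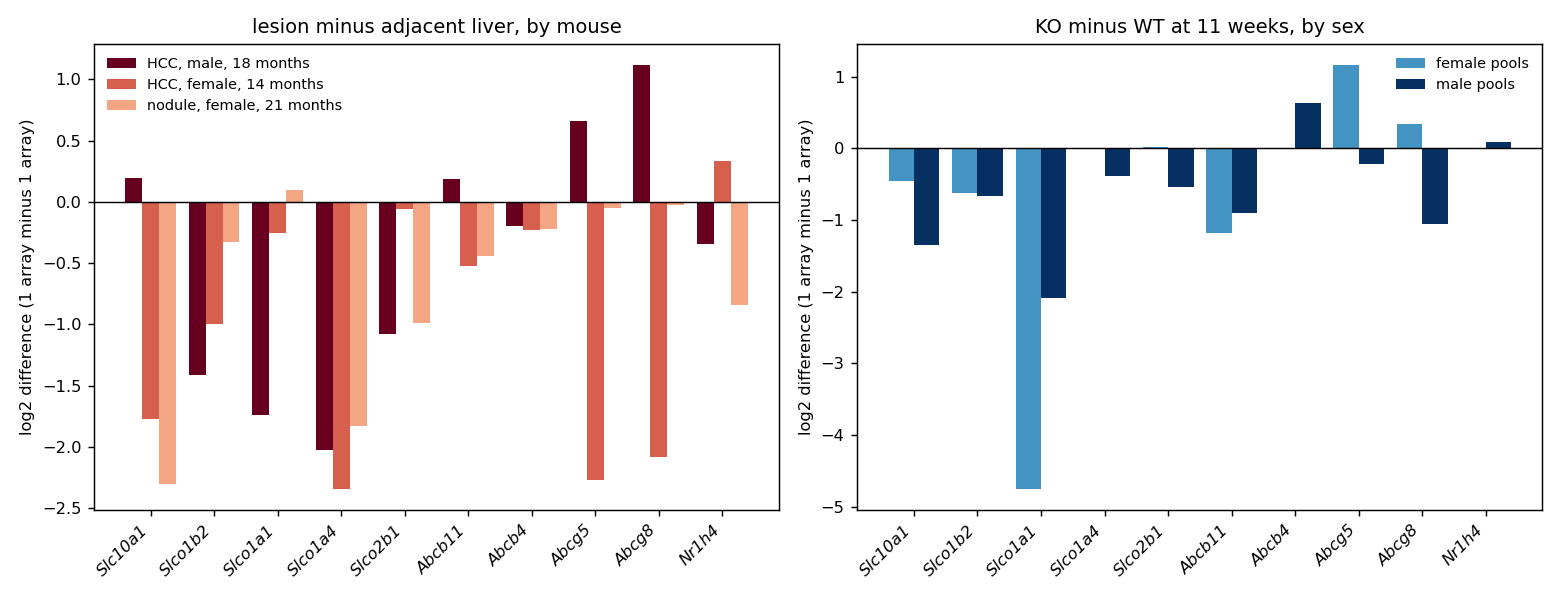
Log2 differences of single arrays for each gene: lesion minus adjacent liver by mouse (left) and knockout minus wild-type at 11 weeks by sex (right). The bars of Slco1a4 reach -2.02, -2.34 and -1.83 in the 3 mice, and those of Abcg5 and Abcg8 point in opposite directions in the 2 HCC.

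Cholangiocyte markers had a higher sum in the lesions, but only Tspan8 was higher than in adjacent liver in all 3 mice. Sox9 was at 309.9, 543.7 and 238.2 in the nodule, male HCC and female HCC, against 348, 610.2 and 236.2. Epcam was at 125.8, 181.4 and 170.5 against 184.6, 110.7 and 185.2, and Krt23 at 24.2, 188.7 and 1009.6 against 55.9, 154 and 211.8. The sum over the 8 of 10 markers measured was 3142.1 to 5199.8 in the 3 lesions and 1016.2 to 2138.2 in adjacent livers. It was led by Tspan8 in both HCC and by Anxa13 in the nodule, while Krt7 and Cftr were below the signal minimum and Krt19 was at 26.7 to 190.3 in the lesions and 50.4 to 210.5 in adjacent livers. Signals of the 18S 3' control were 19.5 to 21.5 in lesions, against 57.3 to 79.9 in adjacent livers. The part of these in the lower transporter signals was not tested.

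At 11 weeks, limma called 0 of 10 members and 0.765% of genes (88) between knockout and wild-type, 42 higher and 46 lower. Centring arrays on the 75th percentile gave 178 higher and 80 lower, with the median of all genes at 0.10 in place of -0.05. At an unadjusted p below 0.05, 4 members differed, all lower in knockouts (Slco1a1, Abcb11, Slco1b2 and Slc10a1), against 18.8% of genes in either direction, and the same 4 had knockout pools wholly below wild-type pools, against 26.0%. With quantile normalization those 4 passed, and 542 genes in all. The median of the members was -0.31. The knockout pools were also lower in endothelial markers, whose 10 measured genes summed to 6033.1 and 6676.4 against 15748.9 and 11792.5 in wild-type pools, and had an Actb 3' to 5' signal ratio of 3.38 and 3.18 against 2.62 and 2.60. The neutrophil marker sum was 6612.4 and 22662.2 in the knockout pools against 3304.4 and 951.9. Of these sums, Lcn2 was 5957.3 and 21325.9 against 2389.4 and 257.4. The part of these in the differences was not tested.

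Between sexes at 11 weeks, limma called 0 of 10 members and 0.243% of genes (28). At an unadjusted p below 0.05, Slco1a4, Abcb11 and Slc10a1 were higher in females, against 5.25% of genes, and Slco1a1 was lower, against 3.54%. Abcb11 turned to -0.37 in 1 model over all 10 arrays. The members whose female and male pools did not overlap were Slco1a4, higher in females as 17.7% of genes were, and Nr1h4, lower in females as 13.0% of genes were.

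Between aged adjacent liver and young knockout liver, limma called 0 members and 0% of genes. At an unadjusted p below 0.05, 4 members were lower (Slco1a1, Slc10a1, Nr1h4 and Slco1b2), against 4.51% of genes. The members' median was -0.63 against 0.09 for all genes. Without the female knockout pool 4 members passed (Slc10a1, Slco1a1 and Abcg8, which were lower, and Abcb11, which was higher), and without the adjacent liver of 21 months Slco1a1 passed. The genes called in all were then 354 and 152, against 0 over all these arrays. Over all 6 aged arrays, 3 members (Slco1b2, Slco1a1 and Nr1h4) were below all 4 young arrays by the brightest probe set of each gene, against 2.67% of genes. For Slco1b2 the next brighter probe sets overlapped. In the same way 4 members were below both wild-type pools, against 10.4%.

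**Figure D4:**
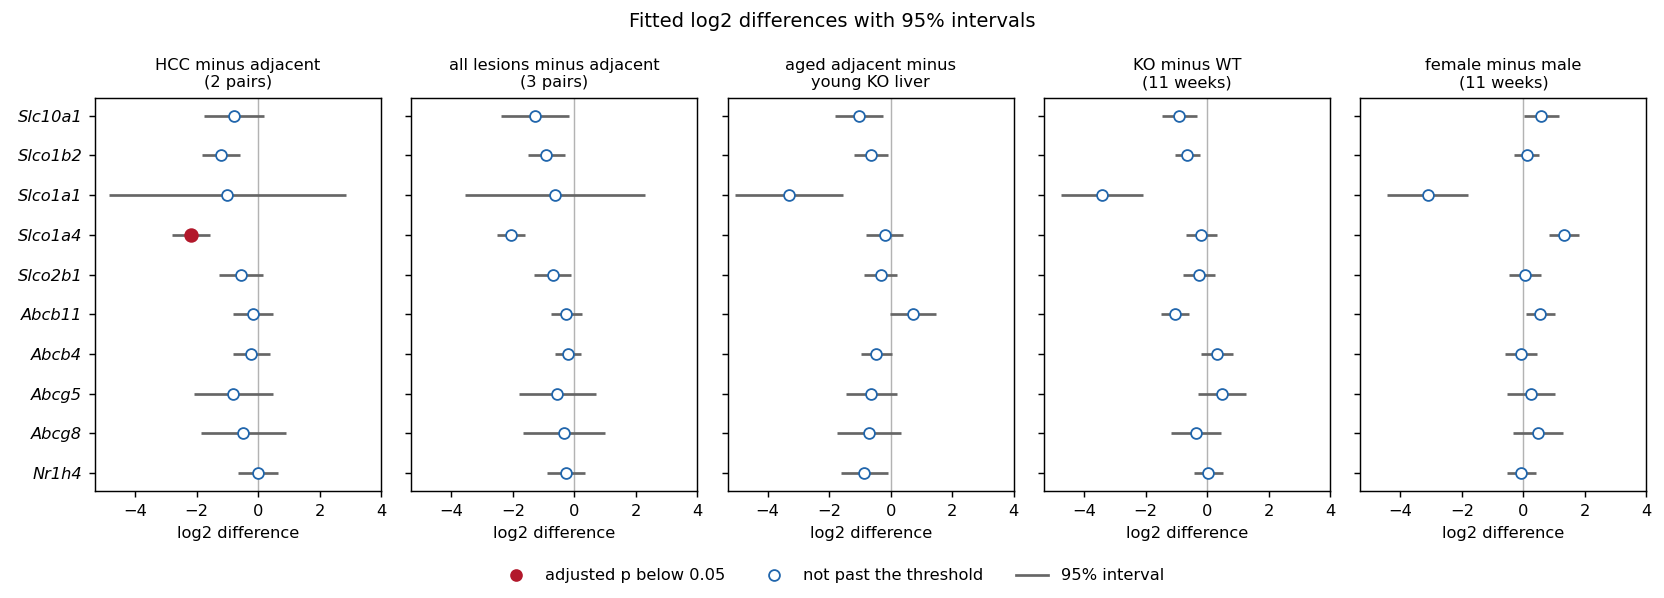
Fitted log2 differences of the 10 genes with 95% intervals in the 5 comparisons. Filled points passed an adjusted p of 0.05, which Slco1a4 did in HCC at -2.18, and open points did not; the interval of Slco1a1 is the widest in each panel.

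The male's adjacent liver was lower than both other adjacent livers by at least 2-fold in 4 members, and 5.25% of genes were. Relative to the lower of the other adjacent livers, the log2 difference was -3.02 in Abcg8, -2.16 in Abcg5, -1.97 in Slc10a1 and -1.65 in Slco1a4. For Slco1a1, the signals of the other adjacent livers are too near the added constant for such a comparison. Sex differs with the mouse here, and Slco1a4 and Slco1a1 were the members that differed most between young females and males.

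Genes outside the 10 were taken from 3 lists, and counts at an unadjusted p below 0.05 are to be read against the share of all genes tested. That share was 4.43% higher and 3.15% lower in HCC, 5.81% and 3.97% over all lesions, 7.60% and 4.51% in aged against young knockout liver, and 5.25% and 3.54% in females against males. Of the other transporters 20 were tested, and Slc51a was below the signal minimum. Between young knockout and wild-type, 1 of 20 fell, where 0.765% of all genes were called in either direction. It was Slco2a1, the prostaglandin carrier (-1.69 ± 0.23 log2 units, limma adjusted p = 0.0417). The list median was -0.17 against -0.05 for all genes. The call held in 6 of 14 other settings and not without the intensity trend (adjusted p = 0.25), without the sex term (0.117) or in 1 model (0.137). Slco2a1 was at 953 and 618.7 in female and male knockouts and 2659.5 and 2387.3 in wild-types. The next genes, which did not pass, were Slc22a7 (-2.53), Slc51b (1.87), a subunit of the basolateral bile acid exporter, and Abcc6 (-1.36). Between the sexes 0 of 20 passed (1 higher and 2 lower at an unadjusted p below 0.05), the largest differences being Abcg2 at -1.43, Abcb1a at 1.35 and Slc10a2 at -1.26.

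None of these transporters passed limma's adjusted threshold in the lesions. At an unadjusted p below 0.05, 1 was higher and 1 lower in HCC, and 2 were higher and 0 lower over all lesions, with list medians of -0.06 and 0.02. The largest HCC differences were Slc47a1 at -1.24, Slc51b at 0.90 and Slco3a1 at 0.85. Over all lesions the largest were Abcb1b at 1.27, Abcc4 at 1.26 and Abcb1a at 0.96. Abcc4, a basolateral exporter of bile acids and nucleotides, was at 21089.4 in the nodule against 456.4 in its adjacent liver, a 46.2-fold ratio of signals. It was at 406.3 and 251.2 in the male and female HCC against 377.4 and 911.7, so the nodule stood alone. Abcc3 and Abcc2, chosen after their values were seen, were also higher in the nodule than in its adjacent liver. Abcc3 was at 12614.8 against 3206.8, its lowest signal on any array. The wild-type female pool was at 12981 for Abcc3, so the nodule did not stand alone in this gene. Abcc2, the canalicular exporter of conjugates, was at 12956.6 against 5750.4, and at 6657.8 or below on every array but the nodule. Abcb1b, a drug exporter, was at 1856.8 in the nodule against 226.3, and at 76 and 1843.9 in the male and female HCC against 192.9 and 436.1. Between aged adjacent and young knockout liver 0 of 20 passed (1 higher and 1 lower unadjusted), with Slc51b at 1.39, Abcc4 at 1.24 and Slc47a1 at -0.93.

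Of 17 bile acid synthesis genes, 3 fell in young knockout livers and 0 rose. These were Cyp39a1, an oxysterol hydroxylase (-2.81 ± 0.27, limma adjusted p = 0.0181), Cyp8b1, the sterol hydroxylase of cholic acid synthesis (-1.44 ± 0.20, adjusted p = 0.0419), and Akr1c6 (-1.21 ± 0.17, adjusted p = 0.0417). Over all genes 0.765% were called, but 1 gene in all was called without the intensity trend, 1 in 1 model over all 10 arrays and 2 without the sex term, and none of these 3 genes passed in those settings. Their calls held in 7, 6 and 5 of 14 other settings, and Cyp8b1 ran from -3.39 to 0.51 when each young pool was left out. Cyp39a1 was at 334.9 and 67.4 in female and male knockouts and 1993 and 708.5 in wild-types. Cyp8b1 was at 4750.1 and 7327.5 in the knockouts and 15034 and 17181.2 in the wild-types. Next were Cyp7b1 (-1.24), Akr1d1 (-1.23) and Slc27a5 (-0.73), which did not pass, and the median was -0.35. Cyp7a1, the rate-limiting enzyme of the classic pathway, was at 7870.9 and 4414.6 in the knockouts and 3234.8 and 8654.7 in the wild-types. Cyp7b1, an enzyme of the alternative pathway, was the 1 gene of the list called between sexes. It was lower in females (-2.72 ± 0.23, adjusted p = 0.0096) and was called in 7 of 14 other settings. Cyp39a1 at 1.77, Akr1d1 at 1.07 and Hsd3b7 at 0.58 followed.

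In HCC 0 of 17 synthesis genes passed in limma (1 higher and 6 lower at an unadjusted p below 0.05), with Cyp7b1 at -1.94 (adjusted p = 0.0762), Cyp39a1 at 1.49 and Akr1c6 at -1.29, and a median of -0.41. Over all lesions 0 passed (0 higher and 7 lower unadjusted), with Cyp8b1 at -1.27, Cyp7b1 at -1.16 and Cyp7a1 at -1.14, and a median of -0.40. Between aged adjacent and young knockout liver 0 passed (0 higher and 5 lower unadjusted). The largest differences there were Cyp8b1 at -3.63, Cyp7a1 at -1.98 and Akr1c6 at -1.64, and the male was lowest, with Cyp8b1 at 43.6 and 39 in its HCC and adjacent liver against 341.2 to 2328.1 in the other aged arrays.

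Of the partners and regulators of FXR, 16 were tested. None passed in limma in any of the 5 comparisons. At an unadjusted p below 0.05, 1 was higher and 7 lower between young knockout and wild-type, 1 and 1 in HCC, 0 and 3 over all lesions, 1 and 2 in aged against young knockout liver, and 3 and 0 between the sexes. The share of all genes in either direction was 18.8% between young knockout and wild-type. In young knockout livers Fgfr4, the hepatocyte receptor of the ileal bile acid signal, was at -1.47 (adjusted p = 0.0527), Nr0b2 at -1.46 and Nr1i3 (CAR) at -1.09, with a median of -0.45. Nr0b2 was at 580.4 and 1159.8 in female and male knockouts and 3387.7 and 1551 in wild-types. In HCC the largest were Nr1i3 at -0.80, Nr0b2 at 0.74 and Fgfr4 at -0.58, and over all lesions Nr1i3 at -0.72, Rxra at -0.50 and Fgfr4 at -0.48. In aged against young knockout liver they were Ppara at -1.27, Nr0b2 at 0.96 and Nr1i3 at -0.84, and between the sexes Fgfr4 at 1.03, Nr5a2 at 0.78 and Klb at 0.73.

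**Figure D5:**
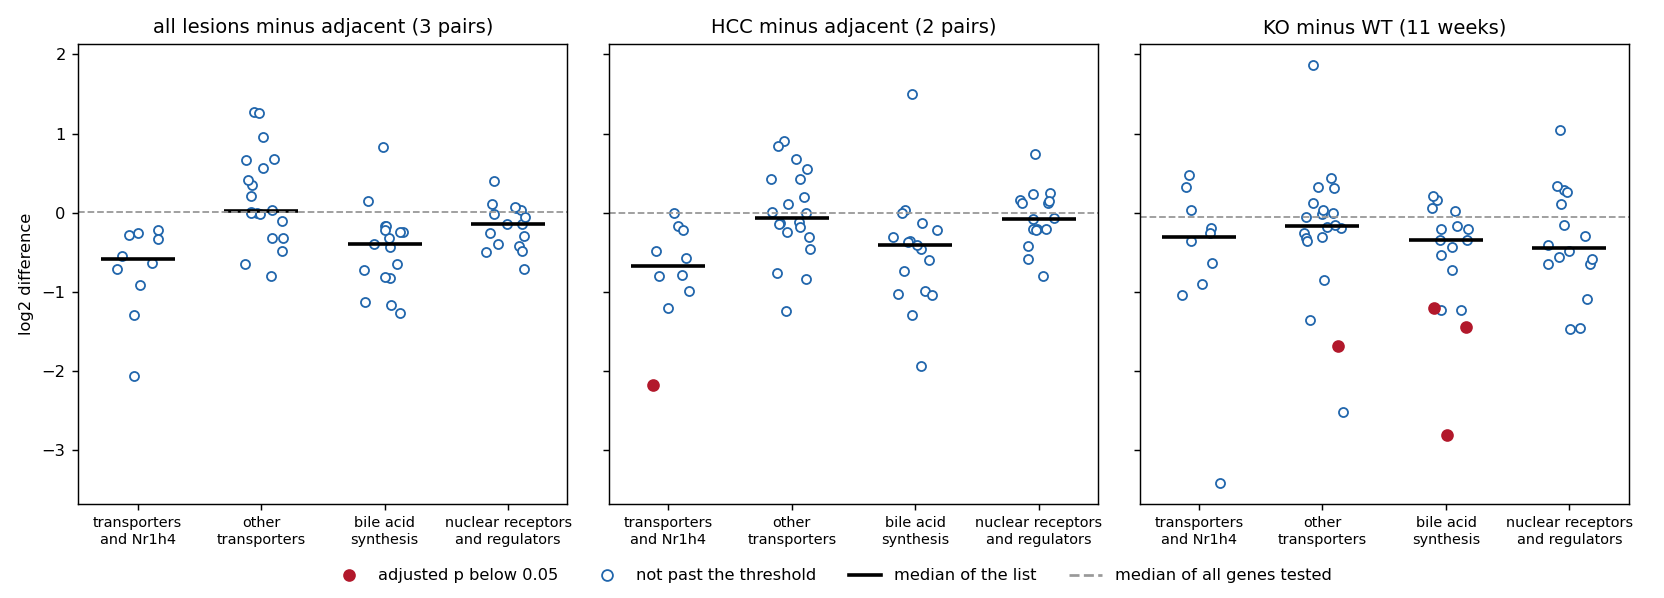
Log2 differences of every tested gene of the 4 lists in 3 comparisons, with each list's median (solid) and that of all genes (dashed). The transporters and Nr1h4 have medians of -0.59, -0.68 and -0.31 from left to right, and filled points passed an adjusted p of 0.05.

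Profiles over the 10 arrays were compared after centring each gene, by the root mean square difference in log2 units. Nearest genes were sought for the members with the widest ranges, with clones and predicted genes left out. Those nearest to Abcg8 were Abcg5 at 0.40, Gpr135 at 0.44 and Sult1b1 at 0.50. Those nearest to Slco1a4 were Zfp395 at 0.45, Tox at 0.52 and Suox at 0.56. Those nearest to Slco1a1 were Serpina4-ps1 at 1.28, Sult2a8 at 1.74 and Mup3 at 1.79, none of them close. Among the members, the smallest differences were those of Slco2b1 and Nr1h4 at 0.26, Abcg5 and Abcg8 at 0.40, and Slco1b2 and Slco2b1 at 0.46. The arrays share their scaling and the aged arrays share mice, so these are descriptions of 10 arrays.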

How the data were processed

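Per the labels, the authors labelled 5 ug of Trizol-extracted RNA per array and computed signals with GCOS, per the submitters' processing notes, whose version is not given in the sources used here. Each probe set has 1 deposited linear intensity per array, and each array had a trimmed mean of 500 with 2% left out at each end. No column of other samples was present (0). No detection calls were used here. Of 45101 probe sets, 34945 listed 1 gene (34741 gene identifiers matched the mouse gene table) and 932 several, and the rest were unnamed here. Overlap of probe sets with related genes was not tested, and the Slco1a genes are close relatives.

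The log2 of signal plus 16.8 was analysed, a constant set at the 20th percentile of the table. Genes were kept where the mean signal of their brightest probe set was above 91. Models were fitted to all 11507 genes with limma 3.58.1 in R 4.3.3 with an intensity trend, with Benjamini-Hochberg adjustment over these genes and a call at an adjusted p below 0.05. Terms were sex (genotype and aged comparisons), genotype (sex comparison) or mouse (lesions); the residual degrees of freedom were 1, 1, 1 (HCC), 2 and 2. The labels do not say whether arrays of a group came from separate preparations beyond the pools and mice named, so p-values refer to these arrays only. With so few residual degrees of freedom, limma drew each gene's spread largely from the trend over all 11507 genes. Every SE, interval and p-value rests on that moderated spread, not on the values of 1 gene alone. In the genotype and sex fits, the only residual was the disagreement between the sexes in the genotype difference. Pairing of lesion and adjacent liver comes from matching sex and age. All 10 members are named, with Gnmt, the called genes and the 3 next largest differences of each list, and the 3 nearest genes of the 3 members with the widest range. The members and lists were chosen with earlier results of these data known, and the Dbp and marker values are given as descriptions. Some list members are not reported here.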

Additional observations from a re-analysis of the deposited data

Results flagged for a closer look

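Abcg5 and Abcg8 moved in opposite directions in the 2 HCC. In the male, HCC minus adjacent liver was 0.66 log2 units for Abcg5 and 1.12 for Abcg8. In the female of 14 months it was -2.27 for Abcg5 and -2.09 for Abcg8. The HCC signals themselves were 2528.7 in the male and 1474.3 in the female for Abcg5, while the adjacent livers were at 1590.8 and 7182.8, so the adjacent livers differed more than the tumours. With 1 mouse each, the difference was not tested.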

How the results depend on the processing

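Of single member values under the alternatives, 639 kept direction and side of the threshold, 25 newly passed, 7 no longer passed and 29 changed sign. The count of members called was as reported in 45 settings and moved in 23. Between knockout and wild-type (0 called) it was 1 with the constant halved, 1 with centring on the 75th percentile, 1 without a filter, 1 with the probe set chosen by its mean log2 value (added after seeing the data) and 4 with quantile normalization; leaving out each array gave 0 to 0. Genes called in all were 88 as reported, and 542 with quantile normalization, 258 with centring, 160 with the added choice, 138 without a filter, 133 with the constant halved, 72 with it doubled, 30 with means over probe sets, 2 without the sex term, 1 without the intensity trend, 1 in 1 model over all 10 arrays and 0 to 6 with each array left out. Between sexes (0) it was 2 with quantile normalization and 1 in 1 model over all 10 arrays, and leave-one-out gave 0 to 1. In HCC (1) it was 0 with quantile normalization, centring, the mean over probe sets, no intensity trend and 1 model over all arrays. It was also 0 with no replicate block (0 members, Slco1a4 adjusted p = 1). Leaving out a mouse left 1 HCC array in an unpaired model, so its calls are not listed here. The totals at the start of this paragraph do include these fits. Centring and quantile normalization each called 3 genes higher and 0 lower, against 8 and 2. For all lesions (0) it was 1 without a filter and 1 over all arrays, and leave-one-out gave 0 to 2. For aged against young knockout liver (0), leave-one-out gave 0 to 4.

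Signs turned as follows. Genotype: without the wild-type male pool, Slco1a4 0.12, Slco2b1 0.31 and Abcg8 0.54; without the wild-type female pool, Abcg5 -0.24 and Nr1h4 -0.37; Nr1h4 was also -0.063 with quantile normalization and -0.43 without the knockout male pool. Sex: Abcb11 -0.37 and Nr1h4 0.60 over all arrays, -0.69 to -0.60 and 0.79 to 0.81 in leave-one-out; Slco1b2 -0.010 and Slco2b1 -0.061 with centring, Slco2b1 -0.19 with the mean over probe sets. HCC: without the female of 14 months, in an unpaired model, Abcb11 0.64 and Abcg8 0.17, where the male's own pairs gave 0.19 and 1.12. Nr1h4 was 0.011 with quantile normalization and 0.050 without the male. All lesions without that female: Abcg5 0.31 and Abcg8 0.54. Aged: Slco1a4 0.089 without the sex term, Abcg8 0.15 without the knockout male pool or the male's adjacent liver (-1.84 to 0.15 over the arrays left out in turn). Where leaving out an array left no residual degree of freedom, the model over all remaining arrays was used, which assumes that a lone array varies like the other groups. That model has group and sex terms over young and aged arrays and no mouse term, so it is unpaired. The cause was not tested. Dim signals limit Slco1a1 in aged liver.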
